A study of Arabidopsis thaliana with 12 samples.

Results

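The genomic regions described here had called peaks in MAC3A libraries of Arabidopsis seedlings labelled dark and none in MAC3A libraries of seedlings labelled blue light. Regions were selected on the presence of called peaks, and a region was chosen when 2 or 3 of the 3 dark MAC3A libraries, and 0 of the 3 blue-light MAC3A libraries, had a peak in it. Peaks of the 6 lists on chromosomes 1 to 5 that overlapped by at least 1 bp were first merged, which gave 2917 union regions. Of these, 213 regions, or 7.3% of all union regions, met the rule and are called dark-only. The number was 130 when only peaks with a −log10 q of at least 5 were used, and 135 without dark replicate 1.

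MAC3A is a U-box protein of the MOS4-associated complex, the plant counterpart of the Prp19 complex of the spliceosome. The complex is known for roles in pre-mRNA splicing and in plant immunity. Chromatin immunoprecipitation followed by sequencing (ChIP-seq) recovers the DNA that lies near a protein in fixed chromatin, whether the protein touches the DNA or is held there by other molecules. The series title sets MAC3A beside the cryptochromes, which are blue-light receptors, and HY5, a bZIP transcription factor that promotes development in the light.

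The 12 samples were dark MAC3A (3 libraries), dark control (3), blue-light MAC3A (3) and blue-light control (3), from whole seedlings with the genotype given as Columbia-4. The growth notes describe a MAC3A-GFP line, with a line carrying GFP alone as the control, whereas the titles call the controls input and the antibody is given as anti-FLAG M2 for every sample. Dark and blue are named in the titles, while the growth note shared by all samples names 6 days in blue light. The promoter that drives the transgene is not given in the sources used here. Only the MAC3A libraries came with peak lists, and the controls' own reads were not analysed here. The local background of peaks, used below, was solved from the MAC3A lists. The solution gave a ChIP depth over control of 1.62, 1.85 and 1.85 in dark replicates 1, 2 and 3. It was 2.53, 2.00 and 2.32 in blue replicates 1, 2 and 3. The local background may therefore hold control signal, which was not checked. The dark lists held 1285, 1225 and 1169 peaks in replicates 1, 2 and 3, and the blue lists held 1505, 1820 and 1578. Nothing in the labels says that replicates were separate cultures, so the spread between these libraries may be technical.

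The dark-only set was made up of 104 regions found in all 3 dark libraries, which is 3.57% of all union regions, and 109 found in 2. Of the 109, 38 were in dark replicates 1 and 2, 41 in replicates 1 and 3, and 30 in replicates 2 and 3. All 3 pairs of dark libraries therefore contributed. The mirror set, called blue-only here, had a peak in 2 or 3 blue and 0 dark libraries and held 499 regions, and 533 regions had a peak in all 6 libraries. The presence of peaks chose the members, so their number and their strength are descriptions and were not tested.

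**Figure D1:**
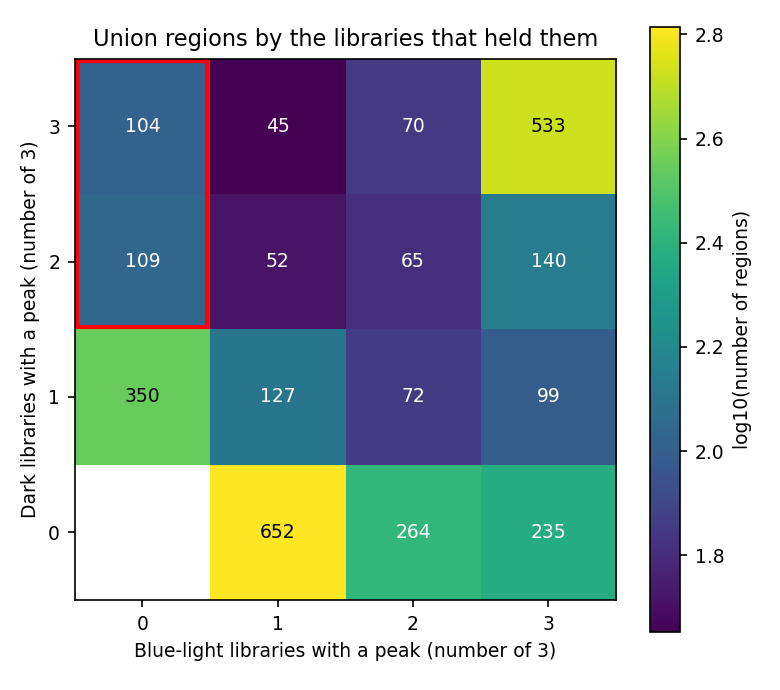
Number of union regions by the number of dark libraries (vertical axis) and of blue-light libraries (horizontal axis) with a peak, coloured by log10 of that number. The red frame holds the dark-only regions, the 104 in 3 dark and 0 blue libraries and the 109 in 2 dark and 0 blue libraries.

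Dark-only regions lay on all 5 chromosomes. Chromosomes 1, 2, 3, 4 and 5 held 54, 31, 48, 39 and 41 of them, or between 5.73% and 8.61% of the union regions of a chromosome. The median distance to the nearest blue-light peak was 12027 bp, and 16 regions (7.51%) lay within 1 kb of one. For the blue-only regions, the median distance to the nearest dark peak was 14696 bp, and 35 (7.01%) lay within 1 kb.

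The region of highest median fold lay on ERD5 (AT3G30775), which encodes the proline dehydrogenase that starts proline breakdown in mitochondria (chromosome 3, positions 12450342 to 12451069; all positions here follow the TAIR10 peak files and start at 1). The fold is the enrichment over local background that the authors' caller gave to a summit, and the highest summit of a region is used for each library. It was 7.02, 3.59 and 6.73 at ERD5 in dark replicates 1, 2 and 3. The fold and p value together also gave the number of ChIP fragments at the summit and the number expected from the local background. Dark replicates 1, 2 and 3 had 101, 91 and 113 fragments at ERD5, where 13.0, 24 and 15.2 were expected. The fragment numbers were close to each other, and the library of lowest fold had the highest expected number. The nearest blue-light peak was 473231 bp away.

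AT1G80810, which has no symbol in the gene table, carried 2 dark-only regions and no region with a blue-light peak on its body. At positions 30368409 to 30368894 of chromosome 1, the dark replicates had 114, 97 and 105 fragments, against 11.4, 14.8 and 38.9 expected, and the folds were 8.90, 5.95 and 2.62. At positions 30366332 to 30367283 they had 117, 109 and 124 fragments, with folds of 7.30, 5.00 and 5.30. In both regions the fragment numbers varied less than the folds. Over the 104 regions found in all 3 dark libraries, the highest library exceeded the lowest by a median factor of 1.2 in fragments, 1.31 in expected fragments and 1.28 in fold.

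A pair of regions with high folds lay on genes for plastid proteins. FIB4 (AT3G23400) encodes a fibrillin, a lipid-associated protein of plastids, and its region (chromosome 3, positions 8377529 to 8378260) had folds of 5.21, 7.77 and 5.56 in dark replicates 1, 2 and 3. PSAF (AT1G31330) encodes a subunit of photosystem I. Its region (chromosome 1, positions 11215171 to 11215940) had 183, 167 and 174 fragments in dark replicates 1, 2 and 3, against 43.9, 36.9 and 38.9 expected, with folds of 4.06, 4.35 and 4.31. The 3 dark libraries were closer to each other in fold at PSAF than at FIB4.

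Other regions among the 20 of highest median fold had less familiar hosts. AT1G07135, a protein-coding gene with no symbol in the table, had folds of 5.24, 3.35 and 7.24 in dark replicates 1, 2 and 3. The transcribed pseudogene AT4G06597 had folds of 4.47, 5.86 and 3.21, with 238, 236 and 266 fragments. PHO1;H1 (AT1G68740), a homologue of the phosphate exporter PHO1, had folds of 3.56, 4.28 and 4.22. These 3 hosts differed in background, since the summit at PHO1;H1 stood on the lowest background of each list or close to it, while the background at AT4G06597 had a median of 5.22 times the lowest. Of the 213 regions, 2 had no gene within 1 kb, both on chromosome 2, and the one at positions 17220195 to 17220755 had folds of 4.03, 3.96 and 4.37.

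**Figure D2:**
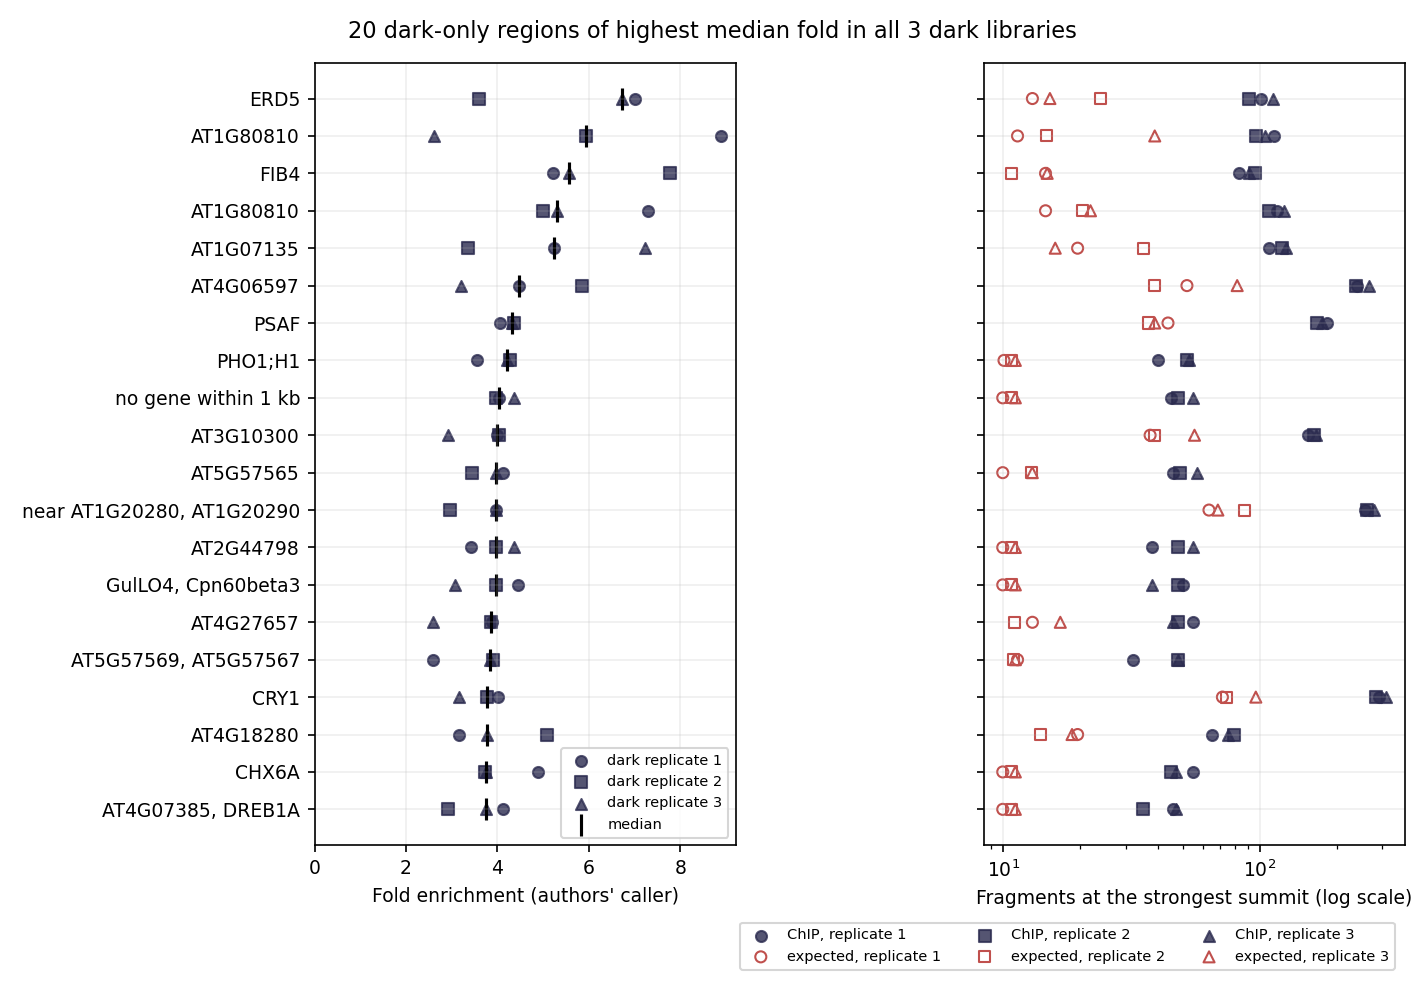
The 20 dark-only regions of highest median fold among those in all 3 dark libraries, with fold (left) and, on a log axis, ChIP fragments (filled) and expected fragments (open) at the strongest summit (right); each symbol is 1 dark library. ERD5, at the top, spans folds of 3.59 to 7.02 with 91 to 113 fragments.

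Measured within the dark lists, dark-only regions were weaker than the other regions. Their median fold was 2.99, 3.16 and 3.05 in dark replicates 1, 2 and 3, against 3.51, 3.56 and 3.59 for all other regions of the same lists. The regions in all 6 libraries had median folds of 4.54, 4.59 and 4.37 in the same dark replicates. The median −log10 q of dark-only regions was 4.85, 5.09 and 4.85, against 5.89, 5.61 and 6.02 for the other regions. Both measures were lower for the dark-only set in each of the 3 dark lists. Taking each region's median over its dark libraries, folds ran from 1.66 to 6.73, and 93 of the 213 regions had a −log10 q of at least 5.

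**Figure D3:**
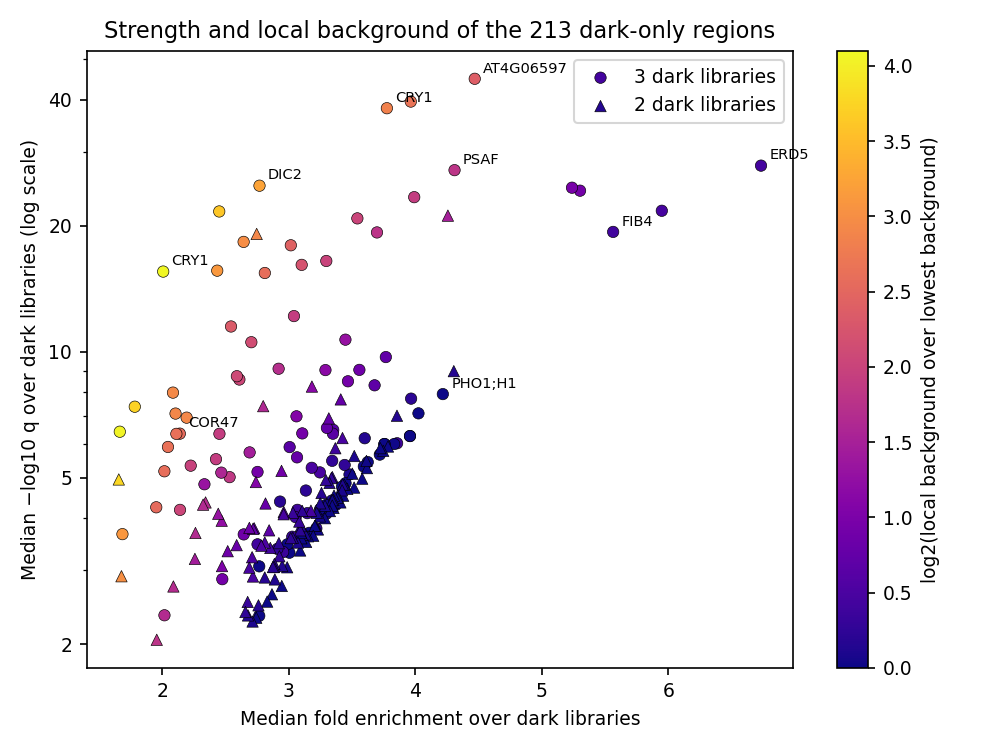
Median −log10 q (log axis) against median fold over the dark libraries for the 213 dark-only regions, coloured by log2 of the local background over the lowest of the list; circles are regions in 3 and triangles regions in 2 dark libraries. Folds run from 1.66 to 6.73, and the longer CRY1 region has the highest background, 16.8 times the lowest.

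At the margin of the rule, membership turned on weak peaks. Just inside, the region on NHL2 (AT3G11650) had −log10 q of 2.06 and 2.04 in dark replicates 2 and 3, and the one overlapping AT4G38050 had 2.47 and 2.06 in dark replicates 1 and 2. Just outside were 97 regions with a peak in 2 or 3 dark libraries and in 1 blue library, and in 33 of them the blue −log10 q was under 3. The lowest of these lay on AT1G78040 and on BEH4 (AT1G78700), a homologue of the brassinosteroid-response factors BES1 and BZR1, each with a blue −log10 q of 2.03.

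The lists also differed in the smallest enrichment they hold. The lowest background of a list corresponded to 9.96, 10.7 and 11.2 expected fragments in dark replicates 1, 2 and 3, and to 22.3, 19.6 and 21.4 in blue replicates 1, 2 and 3. On that background the dark lists held no fold under 2.69 to 2.76, and the blue lists none under 2.36 to 2.38. The lists give no value where no peak was called, so the level of these regions in blue light is not known.

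Dark-only regions lay mostly inside genes. The strongest summit was in a gene body in 178 regions (83.6%), within 1 kb of a gene in 31 (14.6%) and farther away in 4 (1.88%). The share in gene bodies was 66.1% for blue-only regions, 85.0% for regions in all 6 libraries and 73.7% for all union regions. Counted over summits in each library, 84.7%, 84.5% and 84.8% of dark-only summits in dark replicates 1, 2 and 3 were in gene bodies, against 72.7%, 71.7% and 69.8% of blue-only summits in blue replicates 1, 2 and 3. The mean shares differed by 13.3 percentage points. The rule makes the libraries of a condition share regions, since 104 of the 172 to 183 dark-only regions of a dark library were in all 3, so the closeness of the 3 values and the gap between the groups are partly set by the choice of regions. The shares are therefore given as a description, and the SD bars of the figure and the p given later carry no weight.

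The other peaks of the same dark libraries were closer to the dark-only ones. Of all other summits of dark replicates 1, 2 and 3, 81.3%, 80.5% and 83.4% were in gene bodies, a mean difference of 2.98 points. It turned to −3.71 points when only peaks with a fold of at least 3 were used. That filter also removed blue-light peaks, and the rebuilt set held 217 regions, which are not a subset of the 213.

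Within genes, fewer dark-only than blue-only summits lay near the ends. Among regions whose strongest summit was in a protein-coding body, 37 of 171 dark-only regions (21.6%) had it within 250 bp of the nearer gene end, against 146 of 290 blue-only regions (50.3%). The share was 13.6% for dark-only regions in 3 libraries and 30.1% for those in 2. It was 30.2% for regions in all 6 libraries and 41.55% for all union regions. The dark-only regions in 2 libraries were thus close to the regions in all 6. The median distance to the nearer end was 443 bp in dark-only and 247 bp in blue-only regions, and the host genes had median lengths of 2015 and 2302.5 bp in dark-only and blue-only regions. Because the gene table holds no strand, starts and ends of genes cannot be told apart here. Per library, 19.5%, 18.4% and 20.4% of dark-only summits lay within 250 bp of an end in dark replicates 1, 2 and 3, against 45.6%, 45.3% and 46.3% of blue-only summits in blue replicates 1, 2 and 3. The mean difference was −26.3 points, given with no test for the same reason.

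The rest of the dark lists lay between these values. Of the other summits, 33.1%, 35.1% and 33.1% lay within 250 bp of an end in dark replicates 1, 2 and 3, and dark-only summits were lower in 3 of 3 libraries. The mean difference was −14.4 points. With only peaks of fold 3 or more, and the sets rebuilt from them, it was −0.589 points, and the difference from blue-only summits was −8.30 points.

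**Figure D4:**
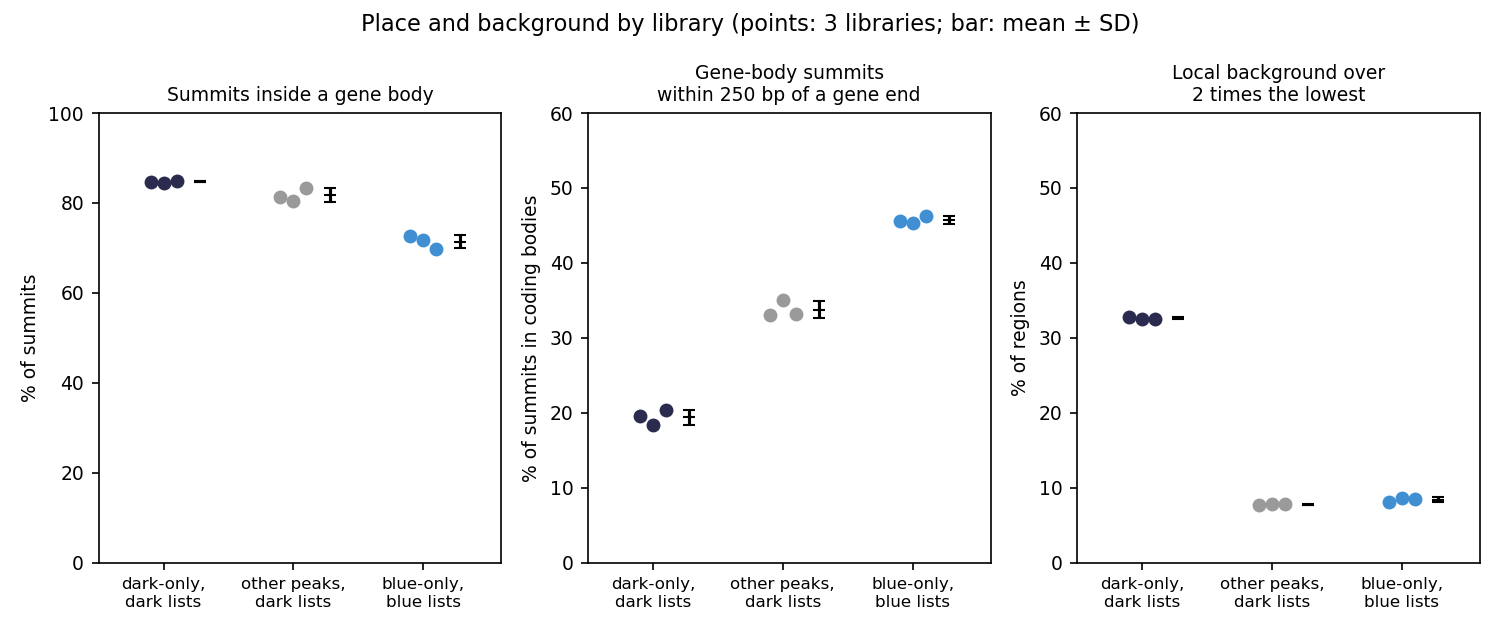
Shares by library for dark-only peaks, for the other peaks of the dark lists and for blue-only peaks: summits in a gene body, coding-body summits within 250 bp of a gene end, and regions with a background over 2 times the lowest (points are libraries, which share regions by the rule, and bars are mean ± SD, n = 3). The bars do not measure the spread of independent libraries. Dark-only summits were within 250 bp of a gene end in 18.4% to 20.4% of cases, and blue-only summits in 45.3% to 46.3%.

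Dark-only regions had a median width of 421 bp, with quartiles of 334 and 559 bp. The median was 413 bp for blue-only regions, 736 bp for regions in all 6 libraries and 385 bp for all union regions, so dark-only regions were narrower than the regions in all 6 libraries but not than the union regions. Regions found in 3 dark libraries had a median of 505 bp and those found in 2 a median of 359 bp. The 5 dark-only regions over 1 kb lay on AT1G79245 (1653 bp), CRY1 (1360 bp), AT1G18740 (1258 bp), SRC2 (1182 bp) and CBF2 (1008 bp). All 5 were found in 3 dark libraries, and the width of a region depends in part on how many libraries are merged. With only peaks of fold 3 or more, CBF2 still met the rule and the other wide regions did not.

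A further feature of the set was a high local background. In dark replicates 1, 2 and 3, 32.8%, 32.6% and 32.6% of dark-only regions had an expected number over 2 times the lowest of the list, against 7.64%, 7.80% and 7.84% of the other regions of the same lists. Among blue-only regions the share was 8.04%, 8.65% and 8.56% in blue replicates 1, 2 and 3, against 4.58%, 5.46% and 4.95% of the other regions of those lists. The measure itself ran higher in the dark lists, since the 533 regions in all 6 libraries passed it in 8.26%, 9.57% and 8.44% of cases in dark replicates 1, 2 and 3 and in 3.75%, 4.32% and 4.13% in blue replicates 1, 2 and 3. These values come from the caller's own numbers, so no test is given, and the part of the control in them was not tested. With only peaks of fold 3 or more, and the sets rebuilt, the dark-only share exceeded that of the other dark regions by 6.43 points. It exceeded that of blue-only regions by 6.75 points.

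Background and place went together within the set. By the median over its libraries, the background was over 2 times the lowest in 61 of the 213 regions. In these, the summit was in a gene body in 93.4% and within 250 bp of an end in 1 of 55, against 79.6% and 36 of 116 in the other 152 regions. The 61 had a median fold of 2.47 and a median −log10 q of 7.11, and the other 152 a fold of 3.23 and a −log10 q of 4.29. Of the 61, 45 were found in all 3 dark libraries, against 59 of the 152. The part of the local background in the result was not tested.

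CRY1 (AT4G08920) encodes cryptochrome 1, a blue-light receptor, and is 1 of 4 genes with 2 dark-only regions on the body. The shorter region (chromosome 4, positions 5724279 to 5724585) had 291, 284 and 309 fragments in dark replicates 1, 2 and 3, against 71.5, 73.9 and 96.4 expected, and folds of 4.00, 3.78 and 3.16. The longer one (positions 5725106 to 5726465) had 352, 360 and 378 fragments, against 162, 218 and 187 expected, and folds of 2.16, 1.65 and 2.01. Its background, 16.8 times the lowest, was the highest of the 213 regions. Its start and end each varied by at most 15 bp between the 3 dark lists, the smallest spread of the 104 regions found in 3 dark libraries, whose median was 130 bp. What gives CRY1 a high background and sharp edges was not tested.

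HY5 (AT5G11260) was the other gene of the light-signalling list with a dark-only region. The region (chromosome 5, positions 3593929 to 3594349) had folds of 2.93 and 2.45 in dark replicates 2 and 3 and no peak in dark replicate 1. A blue-light peak lay 763 bp away. The HY5 region no longer met the rule with peaks of −log10 q of at least 5, or with peaks of fold 3 or more, which left CRY1. Of 40 light-signalling genes found in the gene table, 2 (5%) had a dark-only region on the body or within 1 kb, against 0.976% of all genes and 1.2% of protein-coding genes. The list was chosen with earlier results of these data known, and the gap was not tested. On the body or within 1 kb, 3 of the 40 had a region in 2 or 3 dark libraries and 8 a region in 2 or 3 blue libraries. The share of all genes with such regions was not computed, so these counts are descriptions only.

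The cold and abiotic stress list had the most members in the set. Of its 35 genes, 8 (22.9%) had a dark-only region, all on the body, against 0.976% of all genes and 1.2% of protein-coding genes on the body or within 1 kb. The gene lists were chosen with earlier results of these data known, so this gap is a description and was not tested. With only peaks of fold 3 or more, 3 of the 8 still met the rule (CBF2, DREB1A and WRKY40), and COR47, ERD10, ERD14, TCH2 and ERF104 did not. With only peaks of −log10 q of at least 5, 6 did, without ERD14 and ERF104. CBF2 (AT4G25470) and DREB1A (AT4G25480, also called CBF3) are neighbouring genes for transcription factors that induce cold-regulated genes. CBF2 had folds of 2.80, 3.19 and 3.07 in dark replicates 1, 2 and 3, and DREB1A had 4.11, 2.93 and 3.76, in a region that also overlapped the lncRNA gene AT4G07385. The 2 regions spanned 2694 bp together, with no blue-light peak between them.

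COR47 (AT1G20440), ERD10 (AT1G20450) and ERD14 (AT1G76180) encode dehydrins, hydrophilic proteins that accumulate in cold and drought. Folds in dark replicates 1, 2 and 3 were 2.26, 2.06 and 2.14 at COR47. They were 2.45, 2.70 and 2.14 at ERD10 and 2.09, 1.95 and 1.94 at ERD14. The dehydrin folds were lower than those at the CBF genes, and their backgrounds were 5.87, 3.75 and 5.87 times the lowest at COR47, ERD10 and ERD14.

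The remaining stress genes were regulators. WRKY40 (AT1G80840), a transcription factor of defence and abscisic acid responses, had folds of 3.35, 4.09 and 3.06 in dark replicates 1, 2 and 3. TCH2 (AT5G37770), a touch-induced calmodulin-like protein, had 2.70, 2.70 and 2.90. ERF104 (AT5G61600), an ethylene response factor, had 2.55 and 1.97 in dark replicates 2 and 3. Of the 8 stress-gene regions, 5 had a background over 2 times the lowest, with a median of 3.44 times, against 1.27 times over all dark-only regions. The part of that background in the stress-gene count was not tested. Regions in 2 or 3 dark libraries touched 14 of the 35 genes, and regions in 2 or 3 blue libraries touched 9. The share of all genes with such regions was not computed, so these counts are not read as a result.

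The other lists had few members, to be read against the same 0.976% of all genes and 1.2% of protein-coding genes. Of 50 cell wall loosening genes, 3 (6%) had a dark-only region. XTH18 (AT4G30280) and TCH4 (AT5G57560), both xyloglucan endotransglucosylase/hydrolases, had folds of 2.50, 2.48 and 2.46 and of 3.18, 2.94 and 4.19 in dark replicates 1, 2 and 3, and XTH25 lay within 1 kb of the TCH4 region. Of 25 heat shock genes, 2 (8%) had one, with HSFA3 (AT5G03720), a heat shock factor, at 3.18 and 3.19 in dark replicates 1 and 3, and the chaperone gene BIP3 within 1 kb of the SRC2 region. The evening-complex gene PCL1 (AT3G46640, also called LUX) was the 1 of 16 clock genes (6.25%), with folds of 2.81 and 3.16 in dark replicates 1 and 2. PCL1 no longer met the rule with peaks of −log10 q of at least 5, with peaks of fold 3 or more or with equal-length lists. XTH18 was lost with that q and with that fold, and BIP3 with that fold.

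Photosynthesis and plastid genes gave 2 of 57 (3.51%), FIB4 and PSAF, and dark-inducible and starvation genes gave 1 of 23 (4.35%), ERD5. Growth hormone genes gave 0 of 38, and genes for splicing and the MOS4-associated complex gave 0 of 21. These counts of 0 to 3 genes a list are small, beside 1.2% of protein-coding genes, and were not tested against other genes. Genes with a region in 2 or 3 dark and in 2 or 3 blue libraries numbered 4 and 9 among dark-inducible genes. The numbers were 4 and 5 for photosynthesis, 5 and 9 for growth hormone and 1 and 2 for splicing genes. They were 10 and 9 for cell wall, 7 and 6 for heat shock and 1 and 3 for clock genes. With no share over all genes computed, these dark and blue counts are not read as differences.

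In all, 218 genes, or 0.575% of the 37899 in the table, had a dark-only region on the body. Of them, 199 were protein-coding, 11 were lncRNA genes, 3 were pseudogenes, 2 were transcribed pseudogenes, 2 were miRNA genes and 1 was an antisense RNA gene. The share was 0.725% of the protein-coding genes, 0.316% of the lncRNA genes and 0.0766% of the pseudogenes in the table. No tRNA, snRNA, snoRNA or rRNA body was touched, although 3 tRNA and 3 snoRNA genes lay within 1 kb. The table holds 625 tRNA, 82 snRNA, 287 snoRNA and 4 rRNA genes. Beside 0.575% of all genes, these counts of 0 are not read as a result about those biotypes. The miRNA genes were MIR166a, with folds of 4.36 and 2.49 in dark replicates 1 and 3, and MIR2936, which shares its region with the protein-coding gene SAG21. The MIR2936 region had a median fold of 1.69 on a background of 8.59 times the lowest. Neither miRNA region met the rule with peaks of −log10 q of at least 5 or with peaks of fold 3 or more. Of the 218 genes, 26 (11.9%) also overlapped a region with a blue-light peak. The share over all genes was not computed, so this is not read as a trait of the set.

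CPK28, a calcium-dependent protein kinase gene, and AT4G23510 were the other genes with 2 dark-only regions. At CPK28 (AT5G66210), the region shared with ARO2 had folds of 3.25, 3.25 and 3.07 in dark replicates 1, 2 and 3, and the other had 3.06, 2.92 and 2.55. At AT4G23510, both regions lacked a peak in dark replicate 3. Neither AT4G23510 region met the rule with peaks of −log10 q of at least 5 or with peaks of fold 3 or more. The CPK28 region not shared with ARO2 was lost with that fold. None of the 4 genes with 2 regions had a blue-light peak on its body. Only 11.9% of all genes with a dark-only region on the body had one, so this is not read as a trait of the 4.

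Some dark-only regions lay near each other. Within 10 kb of another member were 28 regions (13.1%), against 98 blue-only regions (19.6%) within 10 kb of another blue-only region. Of the regions in all 6 libraries, 62 (11.6%) lay within 10 kb of another of that set. These sets held 213, 499 and 533 regions, and the shares were not adjusted for set size. The 28 formed 13 groups, and 12 of these had no blue-light peak between their first and last region. The median distance from a dark-only region to a blue-light peak was 12027 bp, so this is not read as a trait of the groups. The 2 groups of 3 were AT4G27652, AT4G27654 and AT4G27657 on chromosome 4, over 3809 bp, and TCH4, AT5G57565 and the overlapping AT5G57569 and AT5G57567 on chromosome 5, over 5375 bp. At AT4G27652 the dark replicates had 148, 162 and 166 fragments, against 40.6, 46.2 and 37.1 expected. All 6 regions of these 2 groups were found in 3 dark libraries.

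**Figure D5:**
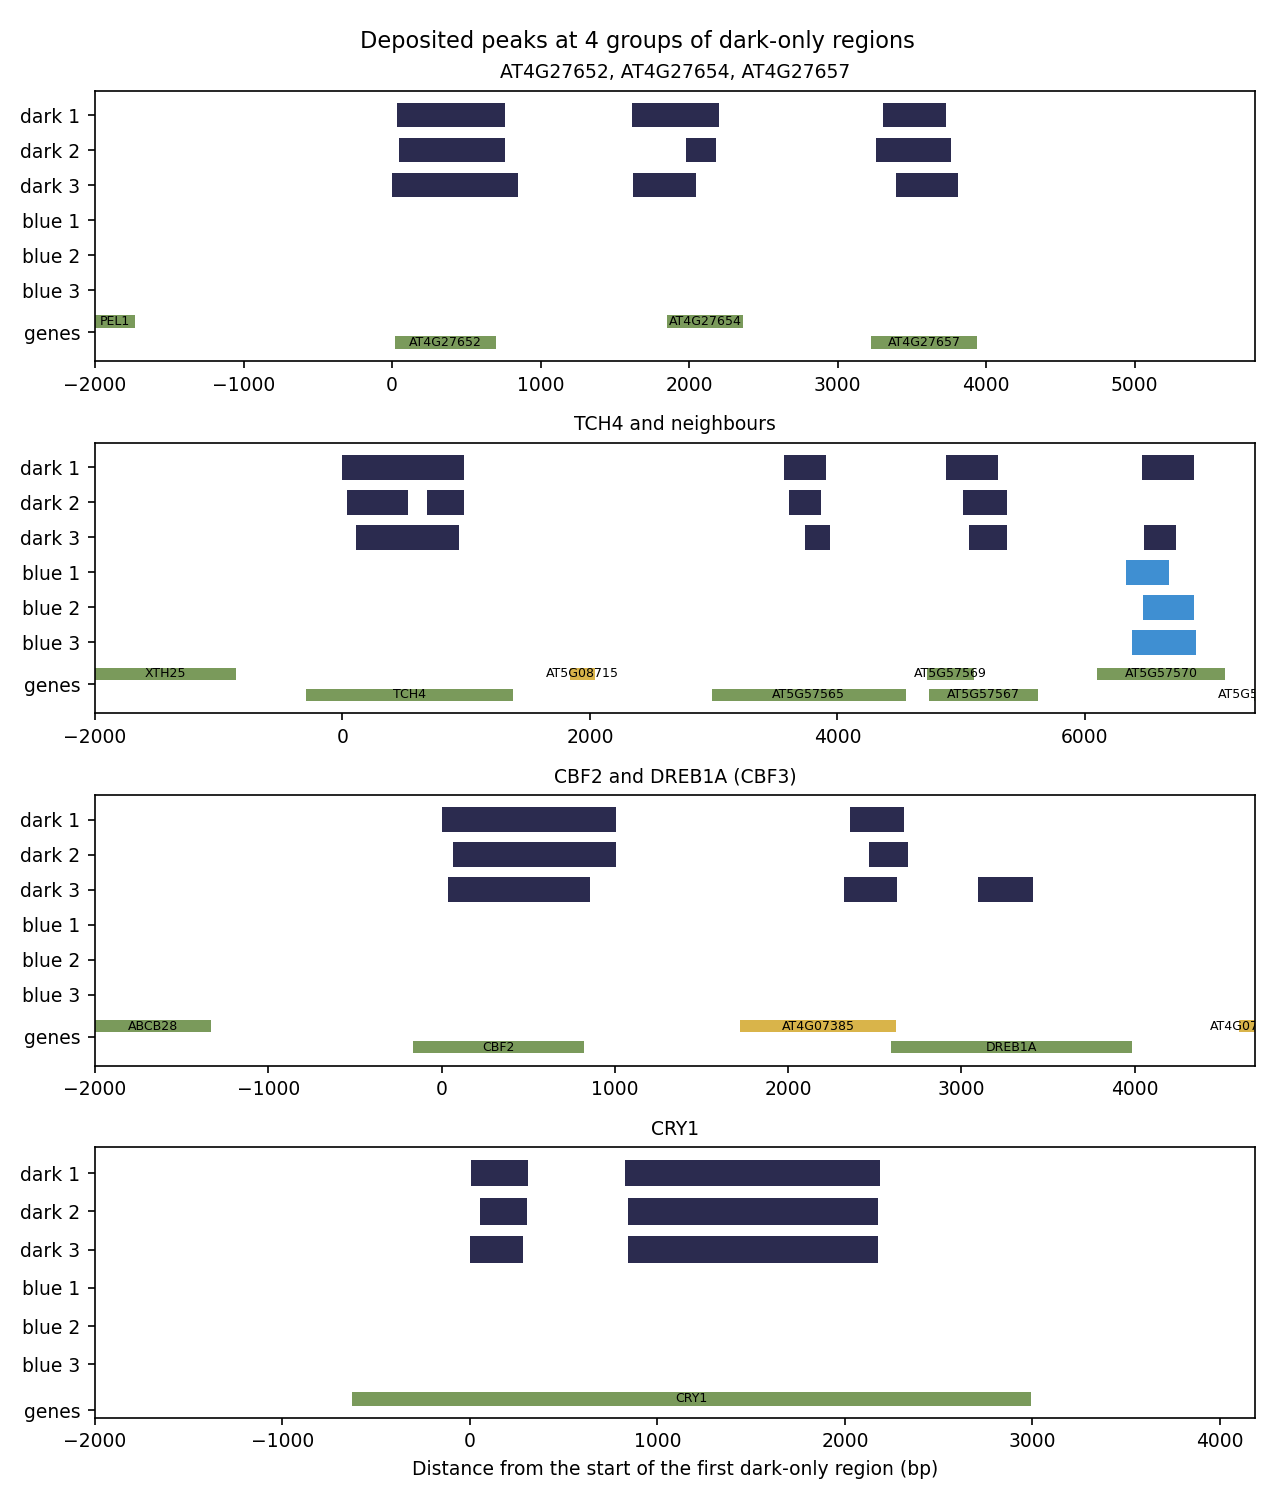
Deposited peaks of the 3 dark libraries (upper lanes) and 3 blue libraries (middle lanes) at 4 groups of dark-only regions, with protein-coding genes in green and other genes in yellow, against distance in bp from the start of the first region. The blue lanes are empty across the dark-only regions, and the blue peaks over AT5G57570 lie 958 bp from the last region of the TCH4 group.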

How the data were processed

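The tools named are MACS2 2.1.1, Bowtie2, SAMtools and ChIPseeker, with build TAIR10, per the submitters' processing notes. The sources used here give no parameters or read totals, and do not say which control was behind each list. Each deposited list gives per summit a fold (a ratio over local background), a −log10 p, a −log10 q and a score that was not used; all are the authors' values, used to describe and rank peaks; folds and q depend on each list's depth. No reads were realigned. The submitters' code for dark replicate 3 repeats the mark of replicate 2; groups follow the titles.

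Python 3.11.15, pandas 2.3.3, numpy 2.4.6 and scipy 1.17.1 were used. Fragments and expected fragments were solved from fold and p with the MACS2 formulas, in 100% of summits. The solver was tested on data simulated with the same formulas, so the test does not check the formulas themselves. The simulated backgrounds did not reach the highest ratios given here. The fragment numbers cover a summit, not a region. They belong to the summit of highest −log10 q. Genes came from a RefSeq table of assembly TAIR10.1 without strand or exons, used for names and neighbourhood. No sequences are shown.

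Named genes were those at the 20 regions of highest median fold among the 104 in 3 dark libraries, at the 5 widest regions, with 2 regions, of small RNA biotypes, in the 9 gene lists (306 of 319 entries found), and at the margin of the rule. Members and lists were chosen with earlier results of these data known. Distance to gene ends and background were compared after the data were seen. Exact permutations over libraries were run (3 against 3, smallest p = 0.10) but carry no weight here, since the rule makes libraries share regions. Alternatives were stricter or equal-length lists, other merging, other gene bodies and leaving out each replicate.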

Additional observations from a re-analysis of the deposited data

How the results depend on the processing

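The number of dark-only regions, 213, was 130 with peaks of −log10 q of at least 5 and ranged from 135 (without dark replicate 1) to 262 when 1 library was left out. It was 217 with peaks of fold of at least 3 and 255 with equal-length lists. Filtered lists, dark and blue alike, were merged anew, so these sets are not subsets of the 213. The gene count, 218, was 135 at that q and 370 with 1 kb added to gene bodies, and ranged from 133 (without dark replicate 1) to 264. The share in gene bodies, 83.6%, was 86.2% at that q, 76.0% at a fold of at least 3, 78.8% with equal-length lists, 98.1% with 1 kb added and 80.3% for protein-coding bodies, and ranged from 81.3% to 87.1% without 1 library. The median width, 421 bp, was 497.5 bp at that q and 432 bp at that fold, and ranged from 417 to 441 bp.

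The gene-body difference between dark-only and blue-only summits was −0.00024 points with 1 kb added and ranged from 9.74 to 16.2 points without 1 library. The difference from other peaks of the dark libraries changed sign at a fold of at least 3 (−3.71 points), with equal-length lists (−1.42), with 1 kb added (−0.750) and without blue replicate 2 (−0.00107), and its highest value without 1 library was 5.57 points. The differences in distance to gene ends and in background kept their direction under the alternatives run. The causes were not tested.

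Taking same-numbered libraries as pairs (replicate block), the gene-body difference was 13.3 points with p = 0.25 in an exact permutation test, the smallest 3 pairs allow, and the shared regions leave it without weight. Replicate numbers did not pair the libraries, with correlations of −0.00761, 0.00502 and 0.0327 over 533 regions. Of the 44 named regions, 33 met the rule with the stricter q, 25 with the fold filter and 41 with equal-length lists.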

Other observations

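Some dark-only regions outside the gene lists lay on genes of recognizable families, chosen here after their values were seen and not tested as groups. PUB23 (AT2G35930) and PUB18 (AT1G10560) encode U-box ubiquitin ligases, the domain type of MAC3A itself. PUB23 had folds of 3.01, 3.90 and 3.68 in dark replicates 1, 2 and 3, and PUB18 had 3.06, 3.44 and 2.66, with a blue-light peak 417 bp away. Cysteine-rich receptor-like kinase genes included CRK10 (AT4G23180), with folds of 2.51, 3.47 and 4.59, and CRK26 (AT4G38830), with 2.68, 3.04 and 2.91. LYK5 (AT2G33580), a receptor kinase of chitin perception, had 2.29, 2.14 and 2.06, on a background of 4.12 times the lowest.

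Beside CPK28, genes related to calcium signalling included CML23 (AT1G66400), a calmodulin-like protein, with folds of 3.59, 3.30 and 2.50 in dark replicates 1, 2 and 3, and CAMBP25 (AT2G41010), a calmodulin-binding protein, with 3.02, 3.46 and 2.41. RR5 (AT3G48100), a type-A response regulator of cytokinin signalling, had 3.62, 3.35 and 2.98, and a blue-light peak lay 479 bp away. ARR6 (AT5G62920), of the same family, had 2.98 and 3.48 in dark replicates 1 and 2 only. RPT2 (AT2G30520), a phototropism signalling protein, and BBX32 (AT3G21150), a B-box protein, had folds of 3.24 and 2.51 and of 3.32 and 2.89 in dark replicates 2 and 3.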
